A study of Mus musculus with 4 samples.

Results

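The genes described here encode the transcription factor NRF2 (*Nfe2l2*), its relative NRF1 (*Nfe2l1*), the adaptor and scaffold of the ubiquitin ligase that degrades NRF2 (*Keap1* and *Cul3*), the autophagy receptor p62 (*Sqstm1*), the repressors that compete for the same DNA sites (*Bach1* and *Bach2*) and the small Maf proteins (*Maff*, *Mafg* and *Mafk*). They were selected by gene name for their place in the pathway, with earlier results of these data known, as were the gene lists used below. Counts of members or list genes set beside all tested genes therefore only describe these data. All 10 genes described here were found, with a single row each, among the 55450 genes counted. All 10 were also among the 16269 genes that passed a filter on low counts.

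RNA-seq was performed on 2 loaded and 2 unloaded samples of MLO-Y4, an osteocyte-like mouse line of WT genotype; a single line stands for the cell type here. Loaded cells grew on collagen-coated plates with a flexible silicone floor and were stretched equally in all directions for 12 h (frequency 0.5 Hz, strain 20%). Unloaded cells grew on ordinary plastic plates and stood for 12 h in the incubator of the loading system, so that plate and stretch cannot be told apart. Total counts were 28941994 and 30058313 in unloaded replicates 1 and 2, and 32185693 and 30337236 in loaded replicates 1 and 2. No label says that the replicates were separate cultures, so p-values measure only the spread between these samples, which may be technical.

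In unstressed cells KEAP1 holds NRF2 and presents it to a CUL3 ubiquitin ligase, which marks it for the proteasome. When KEAP1 is modified by electrophiles or oxidants, or is bound by p62, NRF2 escapes degradation, enters the nucleus and binds antioxidant response elements as a dimer with a small Maf protein. BACH1 and BACH2 form dimers with the same small Mafs and repress many of the same genes, while NRF1 is processed from a membrane-bound precursor and drives proteasome genes. Much of this control acts on protein, which RNA-seq does not measure.

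The label of the cells was compared with marker genes. Values are given as CPM (counts brought to a common library size with TMM factors), a scale on which the floor of 3 counts was worth 0.0930 to 0.103 CPM, for counting error only. Of 8 osteocyte markers, *Pdpn*, *Gja1* and *Phex* were well expressed (147, 497 and 43.8 CPM on average in unloaded cells), *Dmp1* lay at 0.439 CPM, *Mepe* and *Dkk1* had no count in any library, and *Sost*, a marker of mature osteocytes, had 4 counts in loaded replicate 1 and 0 in the other libraries, while *Fgf23* had 4 and 9 counts in the unloaded and 0 in both loaded libraries. The summed level of these markers was 687 and 689 CPM in the unloaded and 848 and 770 CPM in the loaded libraries. Osteoblast markers summed to 2956 and 2882 CPM in the unloaded and 2558 and 2744 CPM in the loaded libraries, led by *Col1a2* at 1450 CPM and *Col1a1* at 1012 CPM in unloaded cells, while *Ibsp* had no count and *Bglap*, *Alpl* and *Sp7* had at most 4, 14 and 25 counts.

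Of the markers of other cell types, the macrophage receptor gene *Csf1r* was the most abundant, at 1579 CPM in unloaded and 1560 CPM in loaded cells, and the whole macrophage list summed to 1631, 1643, 1603 and 1609 CPM in unloaded replicates 1 and 2 and loaded replicates 1 and 2. Of the other 7 genes of that list, *Laptm5* and *Tyrobp* had no count, *Ptprc*, *Adgre1* and *Itgam* had at most 4 counts in any library, and *Cd14* and *Cd68* were at 53.6 and 5.12 CPM in unloaded and 42.8 and 2.94 CPM in loaded cells. Endothelial markers summed to between 1.71 and 3.37 CPM, and these sums overlapped between the groups. Of this list, *Kdr* had no count in the unloaded and 17 and 14 counts in the loaded libraries (edgeR adjusted p = 0.135). *Cdh5* and *Pecam1* went the other way, with means of 1.58 and 0.978 CPM in unloaded and 1.04 and 0.496 CPM in loaded cells. Muscle markers summed to 2.96 and 2.94 CPM in the unloaded and 1.18 and 1.98 CPM in the loaded libraries. Adipocyte markers, mostly *Fabp4*, summed to between 6.96 and 9.29 CPM, and chondrocyte markers, mostly *Sox9*, to between 17.8 and 21.2 CPM. The adipocyte and chondrocyte sums were higher in both loaded libraries. Among the markers, an edgeR adjusted p under 0.05 was reached by *Pdpn* (log2 fold change 0.59, adjusted p = 0.0334), higher in loaded cells, and by the osteoblast marker *Spp1* (log2 fold change -0.50, adjusted p = 0.0405), lower in loaded cells, but when 1 library was left out the adjusted p rose to as much as 0.105 for *Pdpn* and lay between 0.0674 and 0.104 for *Spp1*. The part of these markers in the results below was not tested.

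To compare the members with each other, levels were divided by exon length (CPM per kb of exons). *Sqstm1* was the most abundant of the 10, with a mean of 158 CPM per kb over the 4 libraries, 3.22 times the level of *Nfe2l2* (49.1 CPM per kb). *Cul3* followed at 31.6 CPM per kb. *Mafg*, *Mafk*, *Nfe2l1* and *Maff* had means of 27.5, 24.4, 21.8 and 18.9 CPM per kb, and each overlapped the next in this order in its range over the libraries. *Bach1* and *Keap1*, at 8.86 and 7.75 CPM per kb, also overlapped. *Bach2* was the rarest at 0.859 CPM per kb, above only 23.5% of all tested genes, whereas *Sqstm1* was above 98.6% of them.

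**Figure D1:**
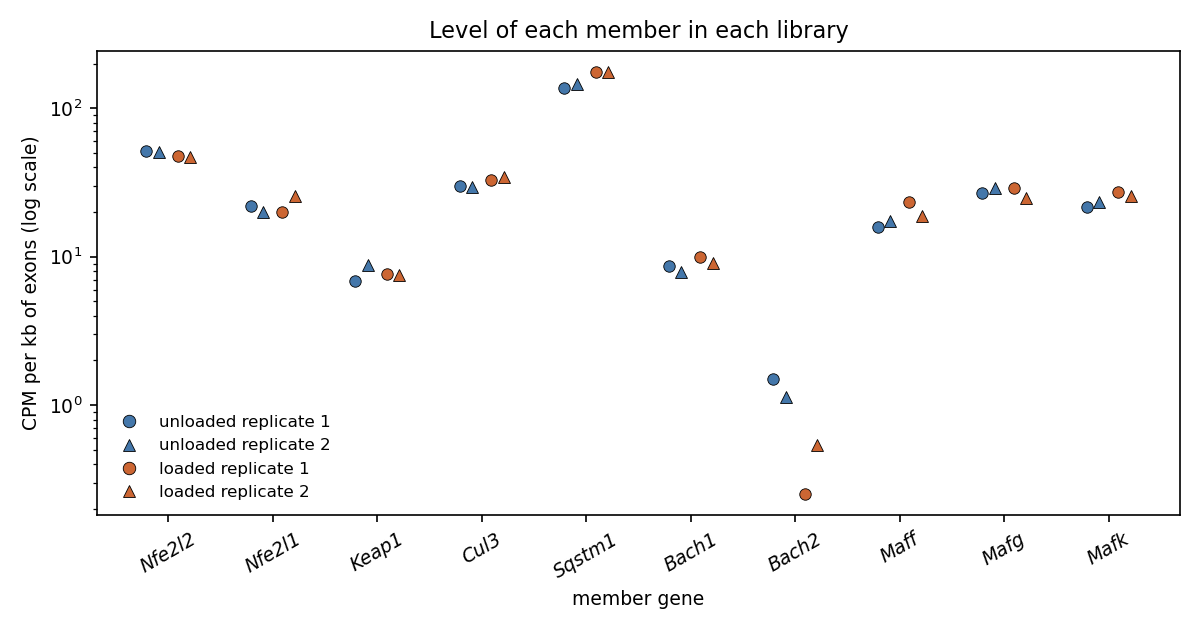
Level of each member in CPM per kb of exons, on a log axis, with a symbol for each of the 4 libraries (blue unloaded, orange loaded, circles replicate 1, triangles replicate 2). *Sqstm1* lies highest in all libraries at 136 to 176 CPM per kb, and both loaded values of *Bach2*, 0.253 and 0.540 CPM per kb, lie below its unloaded values of 1.50 and 1.14 CPM per kb.

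Which regulator transcripts differed between loaded and unloaded cells was asked with the quasi-likelihood F test of edgeR over all 16269 genes, with Benjamini-Hochberg adjustment. At an adjusted p under 0.01, 0 of the 10 members were called, against 0.0983% of all tested genes (16 genes), and at an adjusted p under 0.05 the count was also 0, against 0.904%. Without adjustment, 5 members had a p under 0.05, against 14.3% of all tested genes: *Cul3*, *Maff*, *Mafk* and *Sqstm1* were higher and *Bach2* was lower in loaded cells. DESeq2's Wald test called 2 of 10 at an adjusted p under 0.01, *Sqstm1* higher and *Bach2* lower, against 2.91% of the genes it tested, and edgeR's exact test called *Bach2*, against 1.70% of all tested genes. Separation without overlap between the 2 groups was seen for 7 members, 5 higher and 2 lower, against 46.6% of all tested genes. The median log2 fold change of the 10 members was 0.14, beside -0.01 for all tested genes. In a bulk sample, fewer cells with a transcript and less RNA per cell cannot be told apart.

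**Figure D2:**
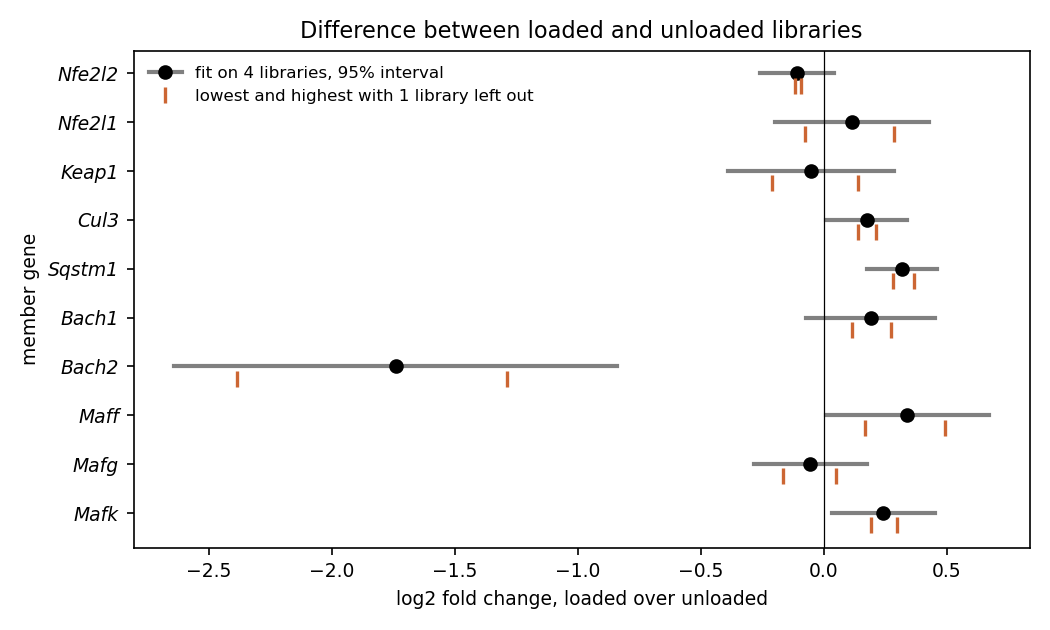
Log2 fold change of each member, loaded over unloaded, from the edgeR fit (black points, grey lines for the 95% confidence interval), and the lowest and highest value when 1 library was left out (orange ticks). *Bach2* at -1.74 lies apart from the other 9 members, whose values run from -0.11 to 0.34.

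The replicates of a group set the scale for these differences. The members closest between replicates were *Nfe2l2*, with 1.01-fold in each group, and *Cul3*, with 1.02-fold between the unloaded and 1.05-fold between the loaded libraries. The replicates farthest apart were those of *Bach2*, 1.32-fold in unloaded and 2.14-fold in loaded cells. Larger gaps also lay between the unloaded replicates of *Keap1* (1.28-fold) and between the loaded replicates of *Nfe2l1* (1.28-fold) and *Maff* (1.26-fold). For 7 of the 10 members, *Nfe2l2*, *Cul3*, *Bach1*, *Bach2*, *Maff*, *Mafk* and *Sqstm1*, the group means of log2 CPM were farther apart than the replicates of either group, against 34.4% of the 15854 tested genes with counts in every library. *Nfe2l1*, *Keap1* and *Mafg* were the exceptions. By p, *Sqstm1* came at place 271 and *Bach2* at place 410 among the tested genes, and *Keap1* came last of the members at place 12976.

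*Nfe2l2*, which encodes NRF2 itself (ENSMUSG00000015839.6, chromosome 2, 75675513 to 75704641, minus strand), was counted 5648 and 5819 times in the unloaded and 5824 and 5309 times in the loaded libraries. After scaling, its level was 194 and 192 CPM in unloaded and 181 and 178 CPM in loaded cells. The replicates lay close together, and both loaded values were below both unloaded values. The log2 fold change was -0.11 (SE 0.0621, 95% confidence interval -0.26 to 0.04, edgeR adjusted p = 0.492). On the linear scale the interval ran from 0.836 to 1.03, so a rise of *Nfe2l2* mRNA beyond 1.03-fold lay outside it.

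*Nfe2l1*, the gene of NRF1 (ENSMUSG00000038615.17, chromosome 11, 96817414 to 96829968, minus strand), had values of 119 and 109 CPM in unloaded and 108 and 138 CPM in loaded cells. The loaded replicates lay on either side of the unloaded ones, and loaded replicate 2 was the highest of the 4 libraries. Its log2 fold change was 0.11 (SE 0.128, edgeR adjusted p = 0.745), and it was -0.08 without loaded replicate 2. Set against *Nfe2l2* within each library, the log2 ratio of CPM per kb was -1.23 and -1.34 in unloaded and -1.26 and -0.88 in loaded cells. These ratios overlapped (two-sided exact permutation p = 0.667).

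*Keap1* encodes the sensor that binds NRF2 (ENSMUSG00000003308.15, chromosome 9, 21229730 to 21239361, minus strand). Its level was 32.4 and 41.6 CPM in unloaded and 36.1 and 35.3 CPM in loaded cells, so both loaded values fell between the unloaded ones. The log2 fold change was -0.05 (SE 0.138, 95% confidence interval -0.39 to 0.29, edgeR adjusted p = 0.911), and it was 0.14 without unloaded replicate 2. An antisense gene, *Gm16754*, shares 510 bp with *Keap1* exons (10.9% of their length) and had 100 to 131 counts per library. Strand use in counting is not given in the sources used here, so reads of a member and of an antisense partner cannot be told apart.

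*Cul3* encodes the scaffold of the ligase (ENSMUSG00000004364.14, chromosome 1, 80264923 to 80340480, minus strand). It stood at 146 and 143 CPM in unloaded and at 159 and 167 CPM in loaded cells. Both loaded libraries were above both unloaded ones, the nearest pair by 1.09-fold. Its log2 fold change of 0.17 (SE 0.0674, 95% confidence interval 0.01 to 0.34, edgeR unadjusted p = 0.0405) did not pass after adjustment (edgeR adjusted p = 0.324).

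*Sqstm1* encodes p62, which binds KEAP1 and delivers it to autophagy (ENSMUSG00000015837.15, chromosome 11, 50199366 to 50210827, minus strand). It was counted 13254 and 14758 times in the unloaded and 19041 and 17473 times in the loaded libraries, or 456, 487, 590 and 586 CPM in the same order. The loaded replicates differed by 1.01-fold and the unloaded by 1.07-fold, while the nearest loaded and unloaded libraries were 1.20-fold apart. The log2 fold change was 0.32 (SE 0.0587, 95% confidence interval 0.18 to 0.46), a 1.25-fold higher level, with an edgeR adjusted p = 0.0928. DESeq2 gave an adjusted p of 0.00148, and over all alternatives the value ranged from 0.00148 to 0.285. *Mrnip*, on the opposite strand, shares 580 bp with *Sqstm1* exons (17.3%) and had 86 to 161 counts per library.

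Within each library, the log2 ratio of *Sqstm1* to *Keap1* in CPM per kb was 4.30 and 4.03 in unloaded and 4.51 and 4.54 in loaded cells. Loaded ratios were higher in both replicates, by 0.36 on average, with a range from 0.23 without unloaded replicate 2 to 0.49 without unloaded replicate 1 (exact permutation p = 0.333, the smallest that 2 against 2 libraries can give). The log2 ratio of *Keap1* to *Nfe2l2* was -2.89 and -2.51 in unloaded and -2.63 and -2.64 in loaded cells (exact permutation p = 1). These groups overlapped.

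*Bach1* encodes a haem-binding repressor of NRF2 target genes (ENSMUSG00000025612.5, chromosome 16, 87698945 to 87733346, plus strand). Its level was 53.8 and 48.5 CPM in unloaded and 61.1 and 55.6 CPM in loaded cells. The groups did not overlap, but the nearest libraries were only 1.03-fold apart, less than the 1.11-fold and 1.10-fold between replicates. For *Bach1* the log2 fold change was 0.19 (SE 0.107, edgeR adjusted p = 0.483), and it ranged from 0.12 without unloaded replicate 2 to 0.28 without unloaded replicate 1. Relative to *Nfe2l2*, the log2 ratio of CPM per kb was -2.56 and -2.69 in unloaded and -2.27 and -2.38 in loaded cells, 0.30 higher on average (exact permutation p = 0.333).

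*Bach2*, a related repressor best known from lymphocytes, differed most (ENSMUSG00000040270.16, chromosome 4, 32238804 to 32586108, plus strand). It was counted 434 and 343 times in the unloaded libraries and 81 and 160 times in the loaded ones. In CPM these counts were 14.9 (95% Poisson interval 13.6 to 16.4), 11.3 (10.2 to 12.6), 2.51 (1.99 to 3.12) and 5.37 (4.57 to 6.27). Both loaded libraries were below both unloaded ones, and the nearest pair of libraries was 2.11-fold apart, but the loaded replicates themselves differed by 2.14-fold.

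The log2 fold change of *Bach2* was -1.74 (SE 0.369, 95% confidence interval -2.64 to -0.84), a level 3.34-fold higher in unloaded cells. In size it was number 257 among the 16269 tested genes. The edgeR quasi-likelihood test gave an unadjusted p = 0.00316 and an adjusted p = 0.125, whereas the adjusted p was 0.00296 in edgeR's exact test and 0.000192 in DESeq2, and over all alternatives it ranged from 0.000192 to 0.225. Without loaded replicate 1 the log2 fold change was -1.29, and without loaded replicate 2 it was -2.39.

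The antisense gene *Bach2os* shares 537 bp with *Bach2* exons (5.40%). It had 88 and 74 counts in the unloaded and 101 and 97 counts in the loaded libraries, a log2 difference of 0.22 (edgeR adjusted p = 0.770). In loaded replicate 1 the antisense gene thus had more counts than *Bach2*. Of the summed *Bach1* and *Bach2* level in CPM per kb, *Bach2* made up 14.7% and 12.7% in unloaded and 2.49% and 5.66% in loaded cells (exact permutation p = 0.333), and *Bach1* was the main form in all 4 libraries.

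The small Maf proteins have no activation domain and serve as partners of NRF2, NRF1 and the BACH factors. *Maff* (ENSMUSG00000042622.14, chromosome 15, 79346621 to 79359076, plus strand) was at 41.4 and 45.2 CPM in unloaded and at 61.1 and 48.6 CPM in loaded cells. Both loaded values were higher, with loaded replicate 1 above loaded replicate 2 by more than the distance from loaded replicate 2 to the unloaded libraries. Its log2 fold change was 0.34 (SE 0.136, edgeR adjusted p = 0.336), and 0.17 without loaded replicate 1.

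*Mafk* (ENSMUSG00000018143.10, chromosome 5, 139791513 to 139802653, plus strand) was at 83.9 and 90.7 CPM in unloaded and at 107 and 99.7 CPM in loaded cells. The groups did not overlap, and the nearest libraries were 1.10-fold apart. Its log2 fold change was 0.24 (SE 0.0862, edgeR adjusted p = 0.288). *Tmem184a*, which shares 169 bp of its exons on the opposite strand, had at most 8 counts. *Mafg* (ENSMUSG00000051510.13, chromosome 11, 120625117 to 120633600, minus strand) was at 152 and 163 CPM in unloaded and at 163 and 140 CPM in loaded cells. These groups overlapped, and the log2 fold change was -0.05 (SE 0.0940, edgeR adjusted p = 0.851), turning to 0.05 without loaded replicate 2. *Mafg* shares 124 bp of exons on the same strand with *Sirt7*, which had 751 to 1030 counts per library, so its value is uncertain by what these exons hold.

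Taken as a pool, the 3 small Mafs summed to 64.5 and 69.7 CPM per kb in unloaded and to 80.0 and 69.3 CPM per kb in loaded cells, and these sums overlapped. Its make-up separated the groups for each of the 3 genes. The share of *Mafg* was 41.9% and 41.7% in unloaded and 36.3% and 36.1% in loaded cells. *Maff* made up 24.7% and 24.99% in unloaded and 29.4% and 27.0% in loaded cells, and *Mafk* made up 33.3% in both unloaded and 34.3% and 36.9% in loaded cells. For each of these shares the groups did not overlap, and the exact permutation p was 0.333, the smallest possible with 2 against 2 libraries. The shares add up to the whole, so these are not separate observations. The difference in the *Mafk* share fell from 2.235 to 0.92 points without loaded replicate 2. That of *Maff* fell from 3.37 to 2.17 points without loaded replicate 1. That of *Mafg* lay between -5.72 and -5.48 points whichever library was left out.

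**Figure D3:**
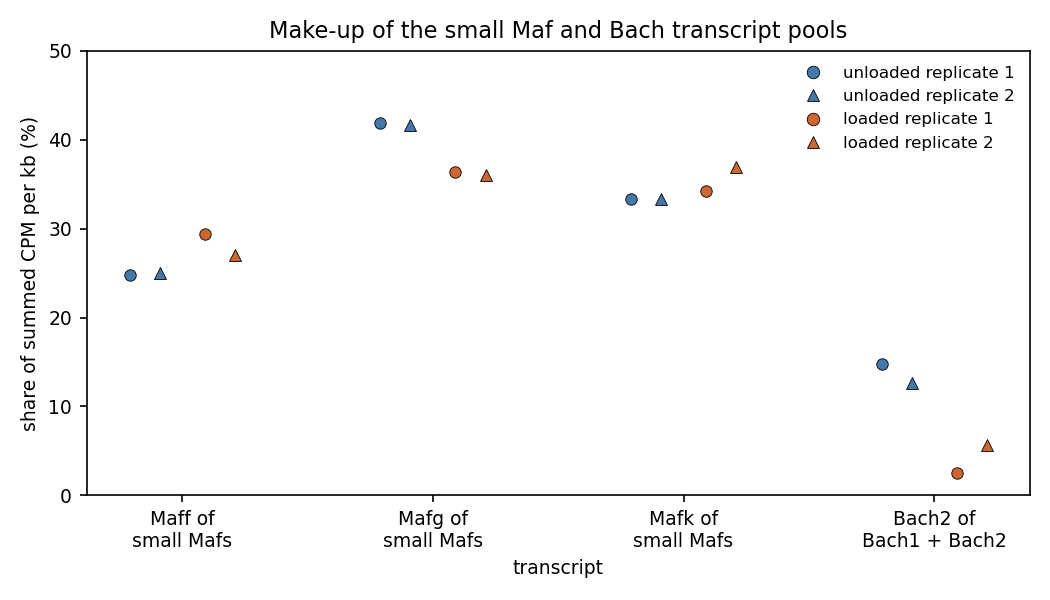
Share of each small Maf in the summed CPM per kb of *Maff*, *Mafg* and *Mafk*, and of *Bach2* in that of *Bach1* and *Bach2*, in percent, with a symbol for each library. The share of *Mafg* is near 42% in unloaded and 36% in loaded libraries, and that of *Bach2* is 12.7% or more in unloaded and 5.66% or less in loaded libraries.

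Promoter windows of all 10 members, from 250 bases before to 50 after an annotated start, were read from RefSeq (GRCm38.p6), 16 windows in all. They were searched on both strands for TGACNNNGC, the core of the antioxidant response element at which CNC factors and small Mafs bind, and for TGAGTCA, the site of AP-1 type factors. The motifs can overlap, since a core whose free letters are TCA holds TGACTCA, the AP-1 type site on its other strand. The core was found in windows of 4 members, *Nfe2l2*, *Maff*, *Mafg* and *Mafk*, and in 14.0% of the 27025 genes with a window. Some genes had several windows. Counted by window, the core was in 4 of the 16 windows of members and in 12.4% of all windows. The other windows of *Maff* held no match. The AP-1 type site was found in no member and in 5.95% of all genes. For *Bach2* the only window (chromosome 4, 32417185 to 32417484, plus strand) lay inside the gene. The region before its gene start at 32238804 was therefore not searched. Among the NRF2 targets with a window, 11 of 29 held the core and 6 the AP-1 type site, and among the constitutive proteasome genes 5 of 27 held the core and 0 the AP-1 type site. *Nfe2l2* and each small Maf are shown because theirs are the windows with a match, with the matching letters in capitals, each written 5′ to 3′ on the strand of its gene.
*Nfe2l2*, chr2:75704614-75704913, minus strand: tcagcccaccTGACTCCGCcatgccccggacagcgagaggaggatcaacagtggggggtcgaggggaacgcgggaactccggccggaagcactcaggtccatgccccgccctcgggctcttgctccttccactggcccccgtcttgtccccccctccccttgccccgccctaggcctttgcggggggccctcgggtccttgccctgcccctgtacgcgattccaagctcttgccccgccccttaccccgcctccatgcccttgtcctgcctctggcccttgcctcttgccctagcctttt
*Maff*, chr15:79346371-79346670, plus strand: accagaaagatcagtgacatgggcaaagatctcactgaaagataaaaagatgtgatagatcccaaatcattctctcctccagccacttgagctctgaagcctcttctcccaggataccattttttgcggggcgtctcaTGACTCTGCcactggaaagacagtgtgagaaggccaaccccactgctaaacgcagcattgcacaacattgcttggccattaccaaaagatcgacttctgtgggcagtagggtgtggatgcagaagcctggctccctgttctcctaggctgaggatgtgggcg
*Mafg*, chr11:120633498-120633797, minus strand: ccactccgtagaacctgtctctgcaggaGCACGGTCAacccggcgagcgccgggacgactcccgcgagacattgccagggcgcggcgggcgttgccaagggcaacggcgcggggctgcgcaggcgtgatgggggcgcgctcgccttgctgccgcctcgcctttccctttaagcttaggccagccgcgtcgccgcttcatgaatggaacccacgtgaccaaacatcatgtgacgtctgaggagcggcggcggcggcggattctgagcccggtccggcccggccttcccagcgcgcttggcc
*Mafk*, chr5:139791286-139791585, plus strand: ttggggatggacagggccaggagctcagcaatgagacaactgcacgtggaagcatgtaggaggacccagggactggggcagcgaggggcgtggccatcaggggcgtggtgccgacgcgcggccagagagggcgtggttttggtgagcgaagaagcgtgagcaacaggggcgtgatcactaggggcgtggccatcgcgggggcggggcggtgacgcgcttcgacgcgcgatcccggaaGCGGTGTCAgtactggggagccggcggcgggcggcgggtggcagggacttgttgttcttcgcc

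The match began at position -240 from the start in *Nfe2l2*, at -112 in *Maff*, at -222 in *Mafg* and at -13 in *Mafk*, and it lay on the opposite strand of the gene in *Mafg* and *Mafk*. Of these 4 genes, *Maff* and *Mafk* had higher values in both loaded libraries, *Nfe2l2* had lower values in both, and *Mafg* overlapped. A match is a run of letters and was not tested for binding.

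The regulators were then set beside the genes that NRF2 is known to control. Of 34 NRF2 targets, all tested, 28 had higher and 6 had lower fitted values in loaded cells, and their median log2 fold change was 0.21, beside -0.01 for all tested genes. At an edgeR adjusted p under 0.01 the count was 0 (0.0983% of all tested genes), at an adjusted p under 0.05 it was 5, all higher (against 0.904%), of which only *Hmox1* stayed under 0.05 whichever library was left out, at an unadjusted p under 0.05 it was 21, 19 higher and 2 lower (against 14.3%), and DESeq2 called 10 of 33 at an adjusted p under 0.01, all higher (against 2.91%). *Hmox1*, the haem oxygenase gene, was at 105 and 106 CPM in unloaded and at 193 and 208 CPM in loaded cells (log2 fold change 0.93, SE 0.0717, edgeR adjusted p = 0.0107), and *Nqo1*, a quinone reductase gene, was at 95.2 and 94.1 CPM in unloaded and at 148 and 153 CPM in loaded cells (log2 fold change 0.67, SE 0.0701, edgeR adjusted p = 0.0216).

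In both targets the loaded libraries were higher, without overlap, and for *Slc7a11*, the cystine transporter gene, the log2 fold change was 0.79 (edgeR adjusted p = 0.0361), and for *Gsta4* 1.23 (edgeR adjusted p = 0.0197). For *Gsta1* it was 1.82 (edgeR adjusted p = 0.0322), but it is nearly identical to other genes of its family and its value is uncertain. *Txnrd1*, *Pgd* and *Blvrb* had log2 fold changes of 0.43, 0.35 and 0.68, with edgeR adjusted p = 0.0516, 0.0610 and 0.0663. Among the members, the upper end of the 95% interval was 0.04 for *Nfe2l2*, 0.46 for *Sqstm1* and 0.67 for *Maff*. The fold changes of *Sqstm1*, *Maff* and *Mafk* lay above the median of the NRF2 targets when all libraries were used. Those of the other 7 members lay below it. This order changed when 1 library was left out. Without loaded replicate 1, *Maff* (0.17) and *Mafk* (0.19) lay below the median (0.25), and *Nfe2l1* (0.28) lay above it. Without unloaded replicate 1, *Cul3* (0.20), *Bach1* (0.28) and *Nfe2l1* (0.19) lay above the median (0.17). Without loaded replicate 2, *Bach1* (0.26) lay above the median (0.22). Only *Sqstm1* lay above it whichever library was left out.

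Genes known to be repressed by BACH1 were 12, of which 9 are also in the list of NRF2 targets and *Mafg* is a member here. Of the 11 tested, 9 were higher, the same 9 that are NRF2 targets, and 2 were lower in loaded cells, *Mafg* and *Fech* (log2 fold change -0.35, edgeR adjusted p = 0.163), and the median of their log2 fold changes was 0.29, while *Bach1* itself had a value of 0.19 and *Bach2* one of -1.74. Of this list 0 had an edgeR adjusted p under 0.01, 9 had an unadjusted p under 0.05, 8 higher and 1 lower (against 14.3% of all tested genes), DESeq2 called 4 at an adjusted p under 0.01, all higher (against 2.91%), and 3 had an edgeR adjusted p under 0.05, *Hmox1*, *Nqo1* and *Slc7a11*, all higher (against 0.904%).

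Of 18 further genes that act on the degradation of NRF2, among them ligases and their cofactors, the kinase GSK3 and the deubiquitinase gene *Usp11*, 13 were higher and 5 lower (median log2 fold change 0.09), and 0 were called by edgeR or DESeq2 at an adjusted p under 0.01 (2 with an unadjusted edgeR p under 0.05, 1 higher and 1 lower, against 14.3% of all tested genes). *Gsk3b*, whose kinase primes NRF2 for the SCF ligase, was at 55.0 and 62.3 CPM in unloaded and at 168 and 83.1 CPM in loaded cells (log2 fold change 1.10, edgeR adjusted p = 0.190). Loaded replicate 1 stood far above the other libraries, and without it the log2 fold change was 0.51, while *Usp11*, *Vcp* and *Siah2* had log2 fold changes of -0.68, 0.13 and 0.17, with edgeR adjusted p = 0.280, 0.359 and 0.526, and the value of *Siah2* ranged from 0.10 to 0.24 when 1 library was left out.

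Of 18 KEAP1 binding partners and genes of the p62 route, 8 were higher and 10 lower (median log2 fold change -0.01), and the count was 0 at an edgeR adjusted p under 0.01, 2 at an unadjusted p under 0.05 (against 14.3% of all tested genes), and 2 in DESeq2 at an adjusted p under 0.01 (against 2.91%), which were *Map3k7* and *Trim21*. *Map3k7*, the gene of the kinase TAK1, was at 104 and 79.9 CPM in unloaded and at 189 and 183 CPM in loaded cells (log2 fold change 1.02, edgeR adjusted p = 0.0369, up to 0.119 when 1 library was left out). *Trim21*, whose protein ubiquitinates p62, was at 21.9 and 19.4 CPM in unloaded and at 10.7 and 11.4 CPM in loaded cells (log2 fold change -0.90, edgeR adjusted p = 0.0556, DESeq2 adjusted p = 0.00261). In neither gene did the groups overlap, and *Gabarapl1* and *Gabarapl2* had log2 fold changes of 0.28 and 0.18, with edgeR adjusted p = 0.374 and 0.467 and ranges of 0.11 to 0.43 and 0.11 to 0.26 when 1 library was left out.

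Among 18 other CNC and large Maf factors, kinases and coregulators, 16 were tested, 9 were higher and 7 lower, and the median log2 fold change was 0.04. None was called by edgeR or DESeq2 at an adjusted p under 0.01, and 1 had an unadjusted edgeR p under 0.05 (against 14.3% of all tested genes), *Prkcd*, the gene of a kinase that phosphorylates NRF2, at 84.9 ± 0.758 CPM (SD, n = 2) in unloaded and 69.3 ± 1.15 CPM (SD, n = 2) in loaded cells (log2 fold change -0.29, edgeR adjusted p = 0.193). *Crebbp*, *Chd6* and *Fyn* had log2 fold changes of 0.18, -0.20 and 0.13, with edgeR adjusted p = 0.349, 0.350 and 0.599, and the value of *Fyn* ranged from 0.07 to 0.19 when 1 library was left out.

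Of 10 genes that act on the processing or control of NRF1, the product of *Nfe2l1*, 9 were tested. Of these, 4 were higher and 5 lower, and the median log2 fold change was -0.08, but 0.09 without loaded replicate 2. None was called by edgeR or DESeq2 at an adjusted p under 0.01, 1 had an unadjusted edgeR p under 0.05 (against 14.3% of all tested genes), and *Ogt*, *Vcp*, *Fbxw7* and *Ngly1* had log2 fold changes of -0.28, 0.13, -0.30 and -0.24 (edgeR adjusted p = 0.347, 0.359, 0.499 and 0.571), which came as near to 0 as -0.14, 0.09, -0.08 and -0.04 when 1 library was left out. Of 33 constitutive proteasome genes, 28 were higher and 5 lower (median log2 fold change 0.10), 0 were called by edgeR or DESeq2 at an adjusted p under 0.01, and 5 had an unadjusted edgeR p under 0.05, all higher (against 14.3% of all tested genes). *Psmd11*, *Psmc1*, *Psmd7* and *Psmb5* had log2 fold changes of 0.20, 0.19, 0.18 and 0.26, with edgeR adjusted p = 0.259, 0.269, 0.273 and 0.301, and the value of *Psmb5* ranged from 0.15 to 0.38 when 1 library was left out.

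All 5 genes of the immunoproteasome and its PA28 activator, which interferon induces, had lower values in both loaded libraries (against 46.6% of all tested genes without overlap in either direction; median log2 fold change -0.42), with counts of 0 at an edgeR adjusted p under 0.01, 5 at an unadjusted p under 0.05 (against 14.3%) and 2 in DESeq2 at an adjusted p under 0.01 (against 2.91%). *Psmb8*, *Psmb9*, *Psmb10* and *Psme1* had log2 fold changes of -0.63, -0.95, -0.42 and -0.38, with edgeR adjusted p = 0.0908, 0.0953, 0.148 and 0.205, and the difference between both kinds of proteasome gene was not tested.

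**Figure D4:**
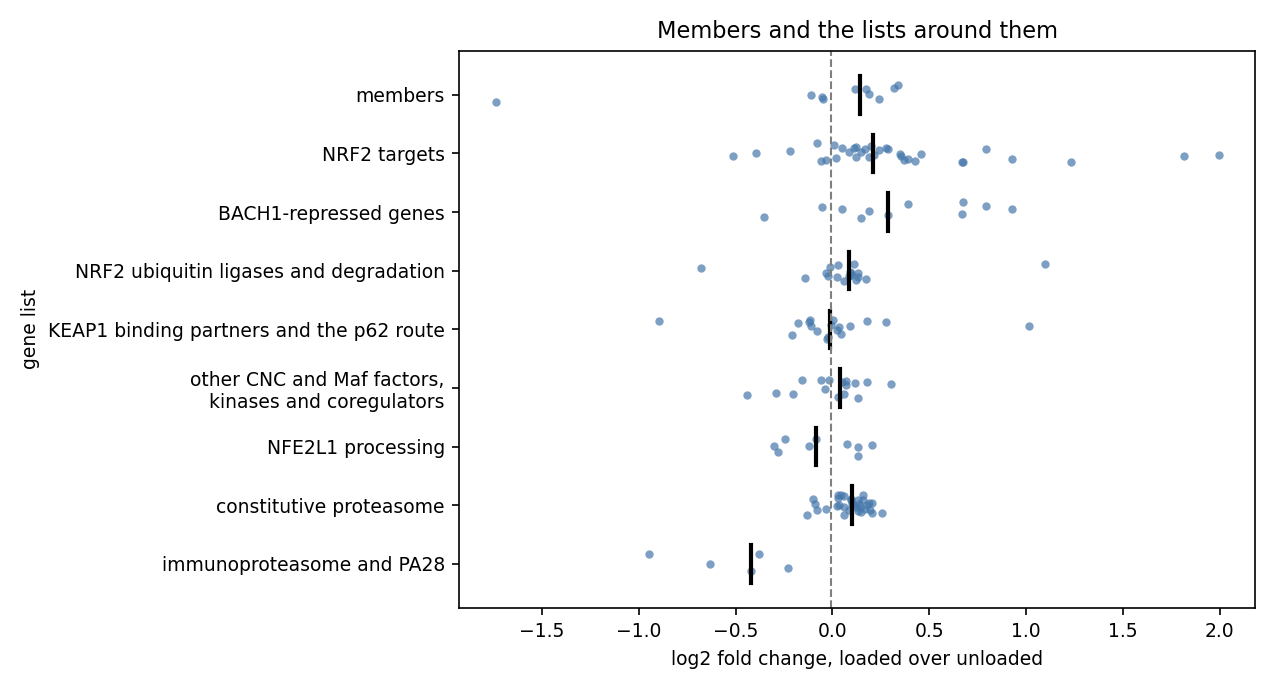
Log2 fold change, loaded over unloaded, of the members and of each tested gene in the lists around them (points, spread vertically for clarity), with the median of each list (black bar) and of all tested genes (dashed line at -0.01). The medians are 0.14 for the members, 0.21 for NRF2 targets, 0.10 for the constitutive and -0.42 for the immunoproteasome genes.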

How the data were processed

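Gene counts of 2 loaded and 2 unloaded samples, grouped by their treatment label, were analysed. The counts were deposited by the authors as whole numbers per gene without normalization: ribosomal RNA was depleted, reads were mapped to mm10 with HISAT2 2.1.0, and the coverage of transcripts assembled with StringTie 1.3.5 was turned into counts with the prepDE script, per the submitters' notes and the study's methods. Read length, strandedness and annotation release are not given in the sources used here. All identifiers were found in GENCODE M21 (GRCm38), which supplied positions and exon lengths. The 37 mitochondrial genes are listed at 0 in every library.

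Counts were filtered with filterByExpr (count minimum 10), scaled by TMM (factors 0.983 to 1.01) and tested over all genes with edgeR 4.0.16 (quasi-likelihood F test, R 4.3.3), called at an adjusted p under 0.01. The SE is the log2 fold change divided by the square root of F, and 95% intervals use the total degrees of freedom of the fit. Alternatives were DESeq2 1.42.0 with its defaults, edgeR's exact test, RLE and upper-quartile factors, other filters, the replicate number as a block, each library left out, and an adjusted p under 0.05. Ratios were tested by exact permutation over libraries. The procedure was tested on simulated data. The members and the gene lists were chosen with earlier results of these data known. Named genes are the members and, for each list, every gene with an adjusted p under 0.01 and the 4 genes of smallest p (8 for NRF2 targets), promoters are those with a motif match, markers were named by level, and *Fech* is the only tested gene of the BACH1 list that is neither an NRF2 target nor a member.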

Additional observations from a re-analysis of the deposited data

How the results depend on the processing

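The paper's methods name DESeq2, at an adjusted p under 0.01, for differential expression of genes. With DESeq2 the number of members called was 2, *Bach2* and *Sqstm1*, and with edgeR's exact test it was 1, *Bach2*. It was 0 under RLE and upper-quartile factors, without a filter, with at least 10 counts in every library, with each library left out, and at an adjusted p under 0.05. The number of all genes called was 16 in the main edgeR quasi-likelihood test used here, 363 with DESeq2 and 276 with the exact test. In the quasi-likelihood test that number was 147 at an adjusted p under 0.05, 29 with at least 10 counts in every library and 0 without a filter. It ranged from 0 to 58 when 1 library was left out: 0 without either loaded library, 50 without unloaded replicate 1 and 58 without unloaded replicate 2. The cause of these shifts was not tested. A lone library in such a fit is assumed to vary like the other group.

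With the replicate number as a replicate block, 0 members and 0 of all genes were called, and the log2 fold change of *Bach2* was -1.81. Deviations from the group means had a correlation across genes of -0.0728 between samples of equal number, which share only that number.

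Leaving out 1 library turned the sign of *Nfe2l1* (range -0.075 to 0.28), *Keap1* (-0.21 to 0.14) and *Mafg* (-0.16 to 0.050), for which the cause was not tested. Over all alternatives, the log2 fold change kept its sign for the other 7 members, from -0.12 to -0.09 for *Nfe2l2*, 0.14 to 0.21 for *Cul3*, 0.12 to 0.28 for *Bach1*, 0.17 to 0.49 for *Maff*, 0.19 to 0.30 for *Mafk*, 0.28 to 0.37 for *Sqstm1* and -2.39 to -1.29 for *Bach2*. Of 5 NRF2 targets with an edgeR adjusted p under 0.05, leaving out 1 library raised it as far as 0.0813 for *Nqo1*, 0.0658 for *Gsta4*, 0.0977 for *Gsta1* and 0.116 for *Slc7a11*, and to 0.0420 for *Hmox1*. The median of the NRF2 targets ranged from 0.17 to 0.25 and that of the constitutive proteasome from 0.09 to 0.12. The median of the genes that act on the processing or control of NRF1 ranged from -0.11 to 0.09, above 0 only without loaded replicate 2. That of the genes repressed by BACH1 ranged from 0.23 to 0.35, and the cause was not tested for either list. Medians close to 0 also turned when 1 library was left out, that of the KEAP1 partners (-0.0487 to 0.00291) and that of the other CNC and Maf factors (-0.00207 to 0.0714). Among the members, depth limits *Bach2* most, which had the fewest counts, 81 in loaded replicate 1. The 95% Poisson intervals of its loaded replicates, 1.99 to 3.12 and 4.57 to 6.27 CPM, did not overlap, so these replicates differed beyond counting error.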
